A study of Mus musculus with 78 samples.

Results

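The 8 genes described here are markers of adult neurogenesis, the formation of new neurons in the grown brain: Eomes, Dcx, Igfbpl1, Sox11, Sox4, Calb2, Neurod2 and Prox1. They were taken by symbol from 20673 genes of a bulk RNA sequencing table, with 1 row each, and all 8 were found. Their values were read in 19 libraries of the hippocampus, which holds the adult neurogenic zone of the dentate gyrus, and in 19 libraries of the hypothalamus for comparison, 38 of 78 libraries in all. The mice were C57BL/6, with no transgene or deletion named in the labels. In each brain region 5 libraries came from 18-month-old mice under circadian rhythm disruption (18M CRD), 4 from 18-month-old mice on a regular light cycle (18M CON), 5 from 8-week-old mice under disruption (8W CRD) and 5 from 8-week-old mice on the regular cycle (8W CON). The regular cycle was 12 h of light and 12 h of darkness. Disruption was made in stages. Light and dark phases were swapped every 3 days for 4 weeks, 48 h of light then alternated with 48 h of darkness for 3 weeks, and the light stayed on for the last week. Because these stages last as long as the younger age itself, the 8-week label cannot be the age of 8W CRD mice at collection. Both schedules gave free access to food. Whether each replicate is its own animal, and whether hippocampus and hypothalamus libraries of 1 number come from the same animal, is not stated in the labels, and all p-values below therefore reflect only how these samples vary, which may be technical.

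In the dentate gyrus, radial glia-like stem cells give rise to dividing intermediate progenitors, these to migrating neuroblasts, and these to immature and then mature granule neurons. Eomes (also named Tbr2) is the T-box factor of intermediate progenitors, Dcx encodes the microtubule-associated protein doublecortin of neuroblasts and immature neurons, and Igfbpl1 encodes a secreted protein related to the insulin-like growth factor binding proteins. Sox11 and Sox4 are SoxC transcription factors of newborn neurons, Calb2 encodes the calcium-binding protein calretinin, which immature granule neurons carry for a time, Neurod2 is a basic helix-loop-helix factor of maturing excitatory neurons, and Prox1 is the homeobox factor of granule neurons. Several are not limited to this lineage. Calretinin also marks mossy cells, interneurons and thalamic neurons, SoxC factors are made in oligodendrocyte precursors too, and Neurod2 stays on in mature pyramidal cells. In these data Dcx and Prox1 were not limited to the hippocampus either, as the hypothalamus values below show. Production of new neurons is known to fall with age in the rodent dentate gyrus.

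In the annotation of the files' build (GRCm38, GENCODE vM21) all 8 are protein-coding genes. Eomes spans chr9:118478212-118486132 on the plus strand, and the other 7 lie on the minus strand. Dcx spans chrX:143855842-143933311, Igfbpl1 chr4:45809468-45826923, Sox11 chr12:27334264-27342574, Sox4 chr13:28948919-28953713, Calb2 chr8:110137502-110168210, Neurod2 chr11:98325415-98329648 and Prox1 chr1:190118035-190170714. The longest annotated transcripts differ much in length. Those of Dcx (9074 bases), Sox11 (8311 bases) and Prox1 (7913 bases) are long, and that of Calb2 (1431 bases) is short. The upstream sequences of Dcx, Sox11 and Sox4 are shown because these were the 3 members whose 18M CON libraries all lay below the 8W CON libraries in the hippocampus. They are RefSeq sequences of GRCm38.p6 on the minus strand, read 5′ to 3′, from 158, 250 and 236 bases of the 250 before a RefSeq start, leaving out bases inside the GENCODE gene. Dcx is chrX:143933312-143933469, Sox11 is chr12:27342719-27342968 and Sox4 is chr13:28953714-28953949.
Dcx: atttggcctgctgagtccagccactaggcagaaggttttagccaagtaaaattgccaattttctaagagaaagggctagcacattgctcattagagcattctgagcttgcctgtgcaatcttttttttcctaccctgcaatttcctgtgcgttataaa
Sox11: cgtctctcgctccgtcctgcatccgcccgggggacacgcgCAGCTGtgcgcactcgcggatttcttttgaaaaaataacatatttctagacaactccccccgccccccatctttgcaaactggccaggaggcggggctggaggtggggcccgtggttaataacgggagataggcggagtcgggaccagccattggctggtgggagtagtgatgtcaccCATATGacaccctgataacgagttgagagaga
Sox4: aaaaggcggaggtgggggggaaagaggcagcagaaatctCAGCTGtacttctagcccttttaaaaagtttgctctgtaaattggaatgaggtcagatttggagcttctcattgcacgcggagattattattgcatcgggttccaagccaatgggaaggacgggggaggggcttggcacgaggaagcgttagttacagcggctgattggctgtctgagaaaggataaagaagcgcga
Capitals mark matches, on either strand, to the E-box CANNTG, the site of basic helix-loop-helix factors such as Neurod2. Sox11 holds 2 such matches and Sox4 holds 1, and the printed stretch of Dcx holds 0. The letters CAGCTG occur in both Sox genes. No match to the SOX core ACAANG, searched in the same way, lies in the 3 printed stretches, and no match to it overlaps an E-box match in any of the members' windows. Of 32851 upstream windows of 250 bases, 66.2% hold an E-box match and 36.3% hold a SOX match. For the members, 4 of 8 windows of 6 genes hold an E-box match and 3 of 8 hold a SOX match. These matches describe letters only.

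Values are FPKM, fragments scaled to transcript length and to the mapped total, so that levels can be set side by side between genes. In the hippocampus Neurod2, Calb2 and Prox1 were the most abundant. Neurod2 and Calb2 are also made by the other cells named above, so the order given here is one of levels in the tissue, not of stages. Over the 19 libraries Neurod2 averaged 54.5 ± 5.70 FPKM (SD), Calb2 47.7 ± 13.0 FPKM and Prox1 12.47 ± 2.56 FPKM. Sox4 followed at 5.86 ± 1.85 FPKM, then Sox11 at 3.06 ± 0.828 FPKM, Dcx at 2.39 ± 0.767 FPKM, Igfbpl1 at 1.61 ± 0.600 FPKM and Eomes last at 1.14 ± 0.444 FPKM. Between neighbours in this order, the ranges of Calb2 and Prox1 alone did not overlap. Sox4 still lay above Sox11 within each of the 19 libraries, Sox11 above Dcx in 15, Dcx above Igfbpl1 in 15, Igfbpl1 above Eomes in 16 and Neurod2 above Calb2 in 13.

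**Figure D1:**
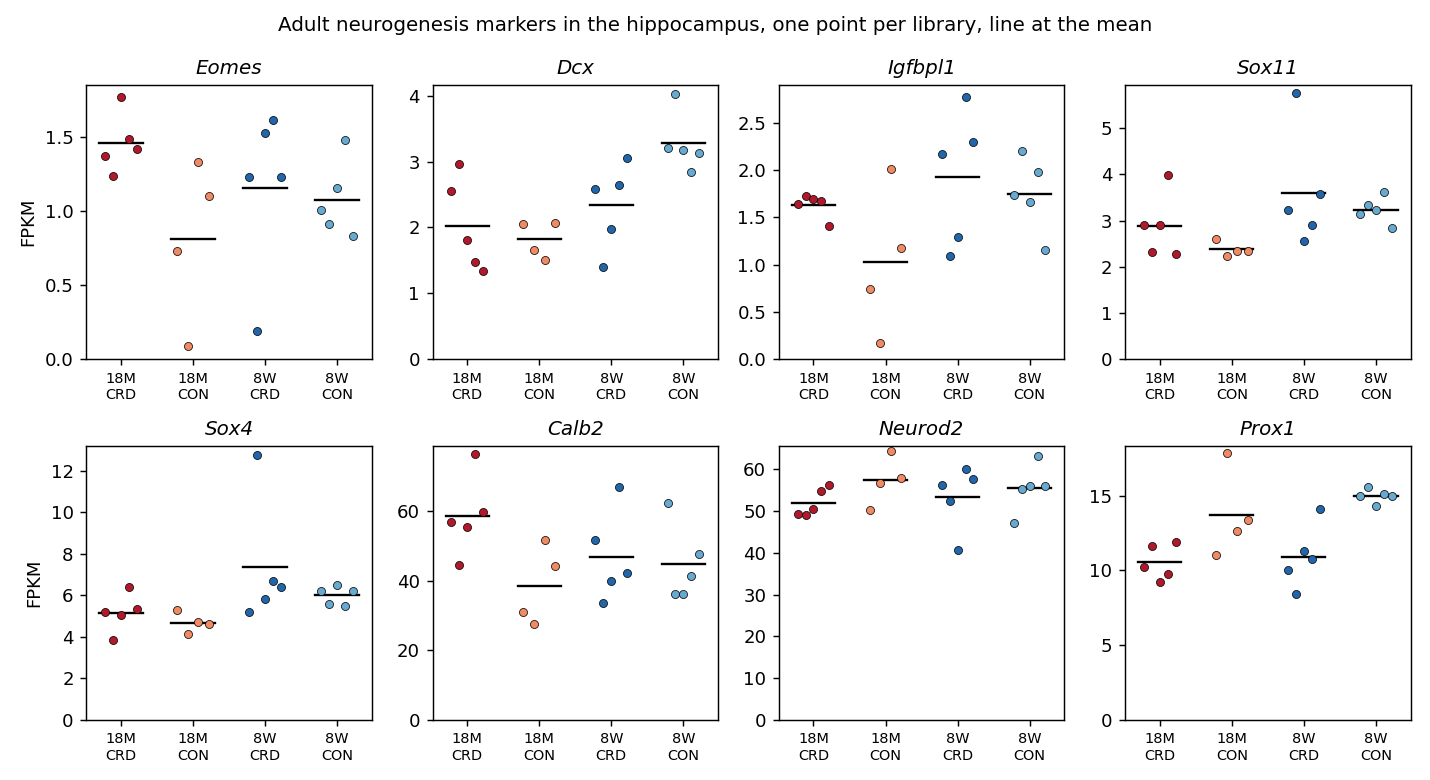
FPKM of the 8 markers in the hippocampus, with 1 point per library, a line at each group's mean and groups 18M CRD, 18M CON, 8W CRD and 8W CON from left to right (n = 5, 4, 5 and 5). In the Dcx, Sox11 and Sox4 panels every 18M CON point lies below every 8W CON point, and in the Prox1 panel every 8W CRD point lies below every 8W CON point.

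The libraries themselves differed in ways that bear on these genes. Summed FPKM lay between 432120 and 572255 in hippocampus libraries and between 430706 and 479949 in hypothalamus libraries, and 17344 to 17753 genes had a value above 0. FPKM holds no counts, so absolute depth is unknown; steps between low values of 164 genes gave a relative depth of 0.833 to 1.1. A transcript length index was taken for each library as the mean log2 level of the tenth of genes with the longest transcripts (from 6886 bases in the hippocampus) minus that of the tenth with the shortest (up to 1410 bases). In the hippocampus it ran from -1.96 to -1.25 in 18M CRD, from -1.46 to -1.32 in 18M CON, from -2.20 to -1.25 in 8W CRD and from -1.19 to -1.06 in 8W CON. The CON ages thus did not overlap, with the older group lower, and neither did the schedules at 8 weeks, with CRD lower. In the hypothalamus the index ran from -1.71 to -1.43 in 18M CRD, from -1.63 to -1.56 in 18M CON, from -1.35 to -1.09 in 8W CRD and from -1.47 to -1.03 in 8W CON. There the ages did not overlap in either schedule, again with the older group lower. Where groups did not overlap, a fit with the index as a covariate extends the slope within groups across the gap. It cannot settle a difference between such groups. The labelled tissues were checked by marker lists: 9 hippocampus genes summed to 255.3 to 320.8 FPKM in hippocampus libraries, against 33.2 to 53.0 FPKM in hypothalamus libraries, and 12 hypothalamus genes summed to 7.95 to 48.8 FPKM in hippocampus libraries, against 1540 to 4241 FPKM in hypothalamus libraries. Ttr, which choroid plexus epithelium makes in large amounts, was at 35.5 and 64.0 FPKM in 18M CRD replicates 1 and 4 and at 86.4 and 40.7 FPKM in 8W CRD replicates 2 and 4 of the hippocampus, against 3000.1 FPKM or more in the other 15. The library 8W CRD replicate 2 stood apart most, with the highest FPKM sum, the lowest index (-2.20) and 18.4 FPKM of Pomc, a hypothalamic and pituitary peptide gene, against at most 5.97 FPKM in the other hippocampus libraries. The part of these differences in the marker values was not tested beyond the alternatives given beside each result.

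With age on the regular cycle, 7 of the 8 markers were lower in the hippocampus of 18M CON mice and Neurod2 was the exception, but none passed the test. A gene was called where limma, fitted to log2(FPKM + 1) over the 4 hippocampus groups, gave a p under 0.05 after Benjamini-Hochberg adjustment. By this rule 0 of 8 members were called, against 0.468% of the 14313 genes tested (67 genes, of which 0.0838% of those tested, or 12 genes, were lower). The unadjusted p lay under 0.05 for 3 members and 2526 of all genes, and the members' median log2 change was -0.27, against -0.02 over all genes tested. For 3 members, Dcx, Sox11 and Sox4, every 18M CON library lay below every 8W CON library, as it did for 11.4% of all genes tested.

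Eomes, the progenitor marker, was measured at 0.73, 0.09, 1.33 and 1.1 FPKM in 18M CON and at 1.01, 0.91, 1.16, 1.48 and 0.83 FPKM in 8W CON. The groups overlapped, and 18M CON replicate 2 was far below all others. For Eomes the log2 change was -0.25 ± 0.21 (SE; adjusted p = 0.569), and -0.02 without that library.

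Dcx, the neuroblast marker, had 2.05, 1.65, 1.51 and 2.07 FPKM in 18M CON, against 3.21, 4.03, 3.17, 2.84 and 3.13 FPKM in 8W CON. The groups did not overlap, and no other marker had so low a p in this comparison. Its log2 change was -0.60 ± 0.159 (adjusted p = 0.0938). Fitted on the CON libraries alone, the adjusted p of Dcx was 0.0125, with 7.57% of genes then called lower. Without the 4 libraries low in Ttr it was 0.0263, and without 8W CRD replicate 2 it was 0.0356, with 4.31% of genes called lower and 2.67% higher in the first of these fits and 0.95% lower in the second. With the length index as a covariate, the change of Dcx was -0.42 ± 0.118 (adjusted p = 0.0541). The CON ages did not overlap in the index, so the covariate fit does not settle the age change.

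Igfbpl1, expressed in newborn neurons, was measured at 0.74, 0.17, 2.01 and 1.17 FPKM in 18M CON and at 1.74, 2.20, 1.66, 1.98 and 1.15 FPKM in 8W CON. 18M CON replicates 1 and 2 lay below all younger libraries, and the other older libraries lay within the younger range. The log2 change of Igfbpl1 was -0.51 ± 0.209 (adjusted p = 0.219), and -0.28 without 18M CON replicate 2.

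Sox11 had 2.59, 2.23, 2.33 and 2.35 FPKM in 18M CON, against 3.15, 3.34, 3.22, 3.61 and 2.84 FPKM in 8W CON. Sox4 had 5.27, 4.13, 4.71 and 4.62 FPKM in 18M CON, against 6.19, 5.60, 6.49, 5.50 and 6.21 FPKM in 8W CON. Neither pair of groups overlapped, and both gaps were narrow, 2.59 against 2.84 FPKM for Sox11 and 5.27 against 5.50 FPKM for Sox4. The log2 changes were -0.33 ± 0.148 for Sox11 (adjusted p = 0.265) and -0.30 ± 0.168 for Sox4 (adjusted p = 0.360). The fit on CON libraries alone called both lower, at adjusted p = 0.0275 for Sox11 and 0.03275 for Sox4. With the length index as a covariate both were also called, at -0.50 ± 0.105 for Sox11 (adjusted p = 0.0249) and -0.53 ± 0.084 for Sox4 (adjusted p = 0.00312), where 1.5% of genes were called lower. The CON ages did not overlap in the index, so the covariate fit does not settle the age changes. For Sox11 the relation to the index also rests on 2 CRD libraries (r = -0.79, and -0.20 without them). Without the 4 libraries low in Ttr, Sox11 was called (adjusted p = 0.0396) and Sox4 was not (adjusted p = 0.0519).

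Calb2, Neurod2 and Prox1 were not called either. Calb2 had 31.0, 27.6, 51.7 and 44.3 FPKM in 18M CON and 62.4, 36.3, 36.3, 41.3 and 47.7 FPKM in 8W CON, with overlap (log2 change -0.22 ± 0.21, adjusted p = 0.613). Neurod2 averaged 57.4 ± 5.79 FPKM in 18M CON (SD, n = 4) and 55.5 ± 5.74 FPKM in 8W CON (SD, n = 5), a log2 change of 0.05 ± 0.104. Prox1 had 11, 17.9, 12.6 and 13.4 FPKM in 18M CON and 15.0, 15.6, 14.3, 15.1 and 15.0 FPKM in 8W CON. The younger libraries were close together and lay inside the spread of the older ones (log2 change -0.14 ± 0.125, adjusted p = 0.590). In a bulk sample fewer cells of a type and less RNA of the marker per cell cannot be told apart.

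Under disruption no marker was called for age either. In the hippocampus of 18M CRD against 8W CRD mice 6 of 8 markers were lower and 2 were higher, 0 of 8 were called, against 0.769% of genes tested (0.0629% lower), and no marker's groups were free of overlap. Sox4 had the lowest p, with 5.18, 3.84, 5.06, 6.39 and 5.36 FPKM in 18M CRD and 5.17, 12.8, 5.82, 6.69 and 6.39 FPKM in 8W CRD. The value of 12.8 FPKM came from 8W CRD replicate 2, and the other libraries of both groups overlapped. Sox4 had a log2 change of -0.39 ± 0.159 (adjusted p = 0.447), and of -0.20 without 8W CRD replicate 2. With the length index as a covariate it was -0.42 ± 0.075 and was called (adjusted p = 0.00578, where 0.3% of genes were called lower). The covariate fit was not run without 8W CRD replicate 2, which had both the highest Sox4 value and the lowest index (-2.20). Dcx had 2.55, 2.96, 1.81, 1.47 and 1.34 FPKM in 18M CRD and 2.59, 1.4, 1.98, 2.65 and 3.05 FPKM in 8W CRD. Both groups spread over the same values (log2 change -0.15 ± 0.149, adjusted p = 0.767). Sox11 had 2.90, 2.32, 2.91, 3.99 and 2.27 FPKM in 18M CRD and 3.22, 5.76, 2.56, 2.90 and 3.57 FPKM in 8W CRD (log2 change -0.23 ± 0.14, adjusted p = 0.609). Eomes (0.24 ± 0.198) and Calb2 (0.34 ± 0.198) had positive log2 changes, and those of Igfbpl1 (-0.12 ± 0.197), Neurod2 (-0.03 ± 0.098) and Prox1 (-0.04 ± 0.118) were smaller than their errors.

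**Figure D2:**
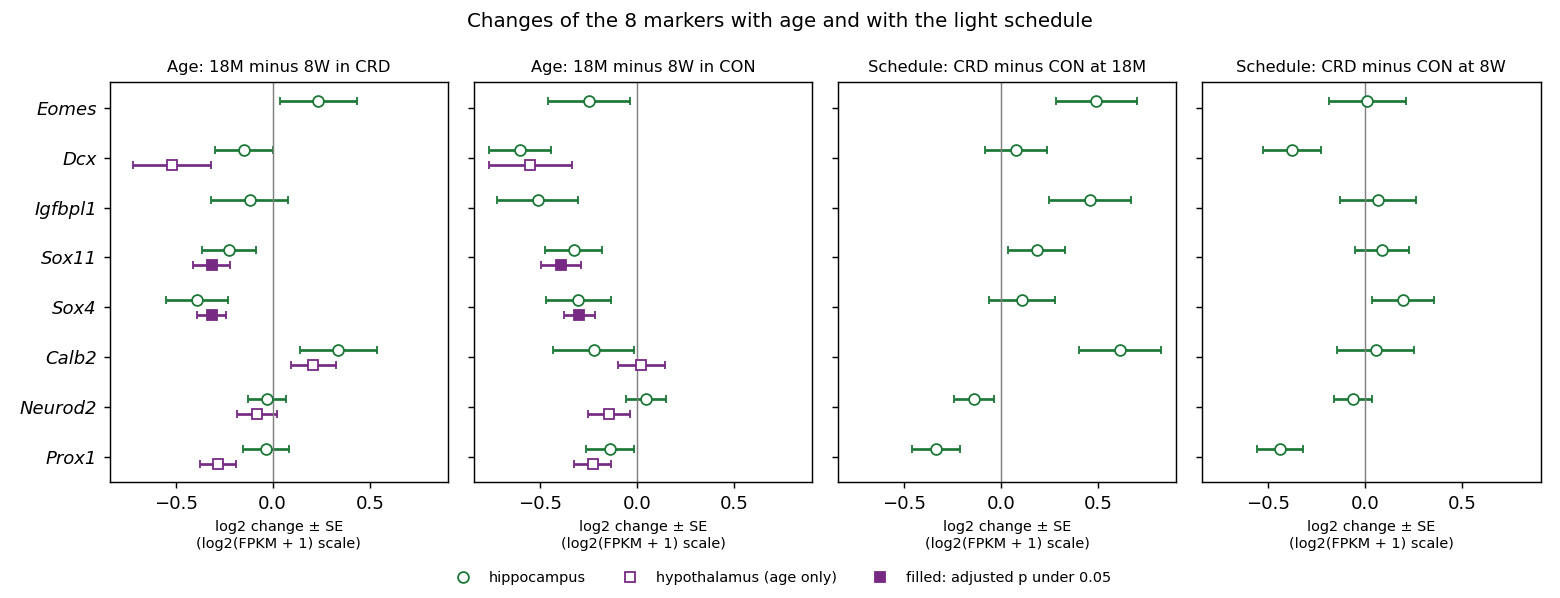
log2 change of each marker with its SE, for age in CRD and CON and for schedule at 18M and 8W, in the hippocampus (circles) and, for age, in the hypothalamus (squares; Eomes and Igfbpl1 were under the level tested there). Filled symbols passed an adjusted p of 0.05 and are Sox11 and Sox4 in the hypothalamus, at -0.39 and -0.30 in CON; all hippocampus symbols are open.

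The effect of the light schedule itself was asked at each age. At 18 months 6 of 8 markers were higher and 2 were lower in CRD hippocampus. None of the 8 was called, and the fit called 0 of 14313 genes (0%), with an unadjusted p under 0.05 for 749 genes and for 4 members. Calb2 had 57.1, 44.6, 55.5, 76.5 and 59.9 FPKM in 18M CRD, against 31.0, 27.6, 51.7 and 44.3 FPKM in 18M CON. All but 1 of the CRD libraries lay above all CON libraries. Calb2 had a log2 change of 0.61 ± 0.21 (adjusted p = 0.812). Other cells also carry calretinin, and 12 interneuron genes summed to 1175 to 1932 FPKM in 18M CRD and 958.6 to 1398 FPKM in 18M CON, 11 of them on the higher side with 0 called (median log2 change 0.31). That list, with Pvalb and Sst among its genes, covers interneurons in general and not only those with calretinin. The 5 thalamic genes other than Calb2 summed to 26.6 to 33.3 FPKM in 18M CRD and 18.1 to 28.8 FPKM in 18M CON, and 6 mossy cell genes to 49.1 to 59.2 FPKM in 18M CRD and 47.7 to 55.6 FPKM in 18M CON. The part of these cells in the Calb2 values was not tested. Eomes had 1.37, 1.24, 1.77, 1.49 and 1.42 FPKM in 18M CRD, against 0.73, 0.09, 1.33 and 1.1 FPKM in 18M CON. Igfbpl1 had 1.64, 1.73, 1.69, 1.67 and 1.41 FPKM in 18M CRD, against 0.74, 0.17, 2.01 and 1.17 FPKM in 18M CON. In both genes the CRD libraries were tightly grouped while the CON libraries spread widely and overlapped them. The log2 changes were 0.49 ± 0.21 for Eomes and 0.46 ± 0.209 for Igfbpl1, both with an adjusted p of 0.812. Leaving out 18M CON replicate 2, the low library, gave the smallest values of the libraries left out in turn for Eomes (0.27) and Igfbpl1 (0.22). Prox1 had 10.2, 11.6, 9.19, 9.76 and 11.9 FPKM in 18M CRD, against 11, 17.9, 12.6 and 13.4 FPKM in 18M CON. Only the lowest CON library lay within the CRD range (log2 change -0.34 ± 0.125, adjusted p = 0.812). The value of 17.9 FPKM came from 18M CON replicate 2, and leaving that library out gave the weakest log2 change of the libraries left out in turn (-0.21). Dcx, at 2.03 ± 0.702 FPKM in 18M CRD (SD, n = 5) and 1.82 ± 0.283 FPKM in 18M CON (SD, n = 4), had a log2 change of 0.08 ± 0.159. Beside these values, all 12 choroid plexus genes were on the lower side in 18M CRD without being called (median log2 change -1.41, against -0.02 over all genes tested), summing to 107.7 to 7998 FPKM in 18M CRD and 6918 to 9581 FPKM in 18M CON, and their part in the marker values was not tested.

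At 8 weeks, again, 0 of 8 markers and 0 of 14313 genes (0%) were called, with an unadjusted p under 0.05 for 2948 genes and for 2 members. Prox1 had 9.99, 8.42, 11.3, 10.8 and 14.1 FPKM in 8W CRD, against 15.0, 15.6, 14.3, 15.1 and 15.0 FPKM in 8W CON. Every CRD library was below every CON library, as for 4.43% of all genes tested, although the highest CRD library came close. Prox1 had a log2 change of -0.44 ± 0.118 (adjusted p = 0.167), and of -0.30 ± 0.119 (adjusted p = 0.597) with the length index as a covariate. Dcx had 2.59, 1.4, 1.98, 2.65 and 3.05 FPKM in 8W CRD, against 3.21, 4.03, 3.17, 2.84 and 3.13 FPKM in 8W CON. Only the highest CRD library reached into the CON range. Dcx had a log2 change of -0.38 ± 0.149 (adjusted p = 0.191), and of -0.11 ± 0.122 with the length index as a covariate. Because 8W CRD and 8W CON did not overlap in the index, the covariate fits of Prox1 and Dcx do not settle a schedule effect. The other 6 markers had log2 changes between -0.06 and 0.20, all within their errors except Sox4 at 0.20 ± 0.159. The Sox4 value rests on 8W CRD replicate 2, without which it was 0.001. The 12 choroid plexus genes were again all on the lower side with none called (median -1.07, against -0.05 over all genes tested), at sums of 113.5 to 13580 FPKM in 8W CRD and 3457 to 10790 FPKM in 8W CON. All 9 tested genes of the hypothalamus list were on the higher side, also with none called (median 0.37), at sums of 18.2 to 42.9 FPKM in 8W CRD and 7.95 to 29.8 FPKM in 8W CON.

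The schedule effect was not shown to differ between the ages. The difference of the effects, 18 months minus 8 weeks, was 0.56 ± 0.288 for Calb2, 0.48 ± 0.288 for Eomes, 0.45 ± 0.218 for Dcx and 0.39 ± 0.287 for Igfbpl1 on the log2 scale. All 8 adjusted p-values were 0.9996, and 3 of 14313 genes (0.021%) were called. The age and schedule comparisons share groups of libraries, so their values for a marker are not independent of each other.

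The members did not move together from library to library. Over the 19 hippocampus libraries, taken as deviations from group means in log2(FPKM + 1), Pearson's r was 0.79 between Sox11 and Sox4, 0.76 between Igfbpl1 and Eomes, 0.59 between Igfbpl1 and Calb2 and 0.58 between Eomes and Calb2. It was 0.37 between Dcx and Igfbpl1, -0.40 between Dcx and Sox11 and -0.62 between Dcx and Sox4. Dcx, Sox11 and Sox4 were thus lower together in 18M CON than in 8W CON, while the pooled deviations of Dcx and Sox4 ran opposite ways. The library 8W CRD replicate 2 was both the lowest of its group in Dcx (1.4 FPKM) and the highest in Sox4 (12.76 FPKM). That library was also the highest of its group in Sox11 (5.76 FPKM). In 18M CON, replicate 2 was the lowest of its group in both Igfbpl1 (0.17 FPKM) and Eomes (0.09 FPKM). None of these coefficients was computed without such libraries or for each group alone. In 18M CON the library highest in Sox4, replicate 1, was not low in Dcx. These coefficients describe genes that share libraries and are given without a test.

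Whole-library measures moved with several markers. The deviations of Dcx followed the length index with r = 0.76 (Spearman's rho 0.74; r = 0.68 without the 2 libraries farthest from the median index). Those of Sox4 went the opposite way, with r = -0.92 (rho -0.77; r = -0.76 without these libraries). For Sox11 r was -0.79 but was -0.20 without the same 2 libraries, 18M CRD replicate 4 and 8W CRD replicate 2, so that the relation rests on them. Igfbpl1 and Eomes instead followed the summed level of 8 genes of ventral forebrain neuroblasts and GABAergic neurons (Dlx1, Dlx2, Dlx5, Dlx6, Sp8, Sp9, Etv1 and Tshz1), a list that stands for cells outside the dentate lineage. Here r was 0.78 for Igfbpl1 (rho 0.91; 0.86 without the 2 farthest libraries), 0.79 for Eomes (rho 0.63; 0.63) and 0.64 for Calb2 (rho 0.54; 0.48). The sum ran from 55.4 to 62.8 FPKM in 18M CRD, from 43.2 to 55.6 FPKM in 18M CON, from 33.6 to 64.1 FPKM in 8W CRD and from 48.7 to 51.4 FPKM in 8W CON. In 18M CRD against 18M CON 7 of its 8 genes had positive changes, with 0 called. Sox4 also followed 10 genes of oligodendrocyte precursors (r = 0.76, rho 0.77; 0.72 without the 2 farthest libraries), whose sum ran from 182.6 to 262.0 FPKM in 18M CRD, from 194.3 to 213.4 FPKM in 18M CON, from 175.0 to 230.1 FPKM in 8W CRD and from 163.8 to 196.6 FPKM in 8W CON. The part of these cells in the marker values was not tested.

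**Figure D3:**
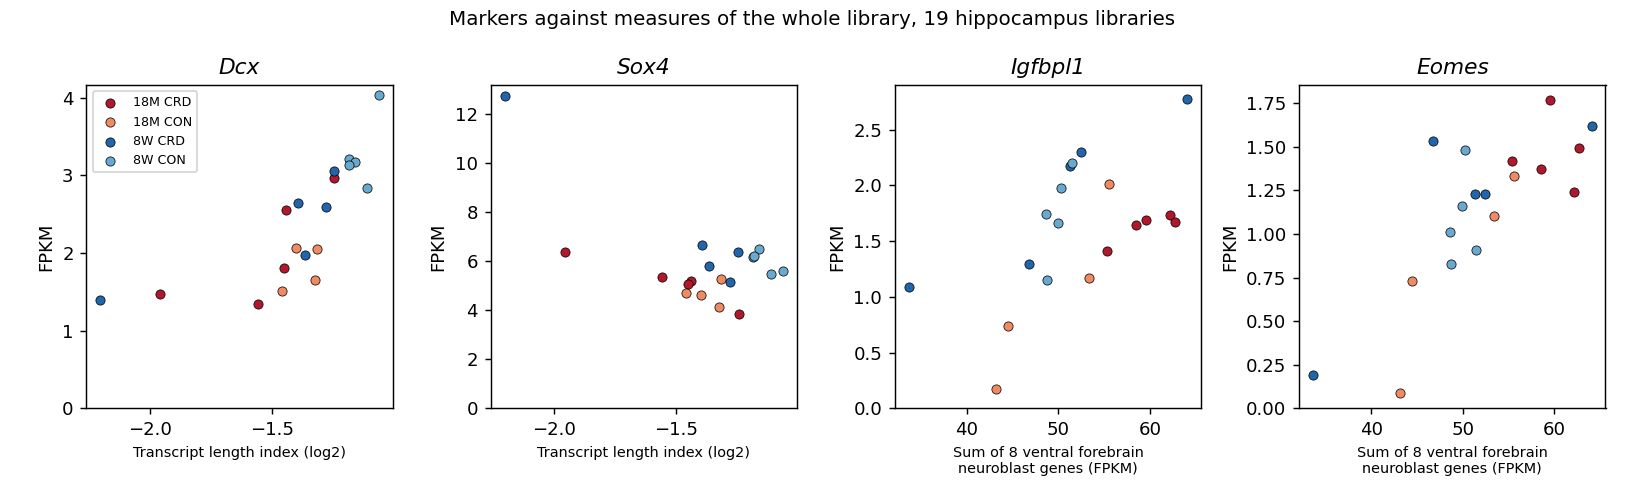
Dcx and Sox4 (FPKM) against the transcript length index, and Igfbpl1 and Eomes (FPKM) against the summed FPKM of 8 ventral forebrain neuroblast genes, with 1 point for each of 19 hippocampus libraries coloured by group. Dcx is high where the index is high, Sox4 is highest at 12.8 FPKM in the library with the lowest index (-2.20), and the 2 libraries lowest in Eomes (0.09 and 0.19 FPKM) have the lowest sums.

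Among 12882 genes that averaged 1 FPKM or more, those whose log2 level followed Dcx most closely over the 19 hippocampus libraries were Peg3 (r = 0.95), Pgap1, Rufy2, Cdc7, Chfr, Zfp462, Cstf2 and Trerf1 (the last at r = 0.93). By deviations from group means they were Peg3 (r = 0.96), Tet2, Mllt10, Zfp462, Col25a1, Ddx17, Ralgps1 and Zfp445. None of the other 7 markers was among them.

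Other genes of the lineage were looked at beside the 8 markers, in lists chosen for their known roles. Of 14 tested stem cell and radial glia genes, 1 rose with age in CON and 0 fell, with a median log2 change of 0.01. It was Vim, an intermediate filament gene of radial glia and also of reactive astrocytes, at 67.7 ± 15.1 FPKM in 18M CON (SD, n = 4) and 38.2 ± 3.28 FPKM in 8W CON (SD, n = 5; log2 change 0.79 ± 0.126, adjusted p = 0.00377). Gfap, an astrocyte filament gene, rose as well, to 603 ± 283 FPKM in 18M CON against 285 ± 12.6 FPKM in 8W CON (log2 change 0.98 ± 0.201, adjusted p = 0.0289). It was the 1 gene called of 7 astrocyte genes. Its mean leans on 18M CON replicate 1, at 1027 FPKM, against 447.8 to 475.2 FPKM in the other 18M CON libraries. Without that library the log2 change was 0.69 ± 0.146 and the call was lost (adjusted p = 0.0671), as it was without any 1 of the 5 8W CON libraries (adjusted p of up to 0.0760). Vim, at 89.7 FPKM in the same library, was still called without it (0.65 ± 0.113, adjusted p = 0.0151). Sox2 and Nes, which mark stem cells and early progenitors, had log2 changes of 0.01 ± 0.135 and 0.01 ± 0.113 in that order. Of 8 proliferation genes tested 0 were called (median -0.08); Mki67, the Ki-67 antigen of dividing cells, was under the level tested, at 0.14 to 0.16 FPKM in 18M CON and 0.20 to 0.34 FPKM in 8W CON. Of 23 further progenitor and neuroblast genes 0 were called, 17 were lower and 6 higher (median -0.12, against -0.02 over all genes). Among them St8sia4, a polysialyltransferase that modifies the adhesion molecule of migrating neuroblasts, had a log2 change of -0.43 ± 0.112 (adjusted p = 0.0930), and Neurod1, a factor of differentiating granule neurons, one of -0.12 ± 0.116. Of 12 genes of mature granule neurons 0 were called, 6 lower and 6 higher (median -0.04). The progenitor and neuroblast list was not particular to the hippocampus. There it summed to 1184 to 1373 FPKM in 18M CON and 1101 to 1310 FPKM in 8W CON. In the hypothalamus its sums were higher, 2412 to 2698 FPKM in 18M CON and 2267 to 2583 FPKM in 8W CON.

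Under CRD the age comparison called 0 of 14 stem cell genes (median -0.07), 0 of 8 proliferation genes (median -0.10), 0 of 23 progenitor and neuroblast genes (15 lower, 8 higher; median -0.04) and 0 of 12 granule neuron genes. In the other lists 2 genes rose with age under CRD, 1 of 7 microglia genes and 1 of 23 signalling genes of the neurogenic niche. C1qa, a complement gene of microglia, was at 169 ± 21.2 FPKM in 18M CRD and 99.1 ± 44.8 FPKM in 8W CRD (SD, n = 5 each; log2 change 0.85 ± 0.181, adjusted p = 0.0289). B2m, the light chain of MHC class I and a circulating factor known to restrain neurogenesis in mice, was at 375 ± 81.2 FPKM in 18M CRD and 212 ± 85.3 FPKM in 8W CRD (SD, n = 5 each; log2 change 0.88 ± 0.198, adjusted p = 0.0383). Both calls depended on single libraries. That of C1qa was lost without any 1 of 7 libraries, 18M CRD replicates 1, 3, 4 and 5 and 8W CRD replicates 1, 4 and 5 (adjusted p of up to 0.0937). That of B2m was lost without any 1 of 14 libraries, all 5 of 18M CRD, 8W CRD replicates 1, 4 and 5, 18M CON replicates 2, 3 and 4 and 8W CON replicates 2, 3 and 4 (adjusted p of up to 0.131). Leaving out 8W CRD replicate 2, the library that stood apart most, moved both the other way. C1qa was then at 1.08 ± 0.106 (adjusted p = 8.24e-06) and B2m at 1.08 ± 0.159 (adjusted p = 0.00103). In CON the log2 change of B2m with age was 0.04 ± 0.21. The difference between the schedules was 0.84 ± 0.289 and was not called (adjusted p = 0.9996). No list gene was called in CRD against CON at either age. Of 12 granule neuron genes 9 were lower in 18M CRD (median -0.15, against -0.02 over all genes) and 10 were lower in 8W CRD (median -0.12, against -0.05), beside the lower Prox1 values. In 18M CON the sum of these genes was highest in replicate 2, at 307.3 FPKM, against 228.8 to 257.4 FPKM in the others. This list does not stand for granule neurons alone, since it summed to 163.6 to 188.0 FPKM in 18M CON hypothalamus.

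The hypothalamus, where far fewer neurons are born in adults, gave the same markers in other proportions. Calb2 led there at 223.5 ± 29.8 FPKM over 19 libraries (SD), followed by Sox4 (5.42 ± 0.825 FPKM), Prox1 (4.45 ± 0.743 FPKM), Dcx (4.01 ± 1.399 FPKM), Sox11 (3.26 ± 0.660 FPKM), Neurod2 (0.711 ± 0.200 FPKM), Igfbpl1 (0.402 ± 0.104 FPKM) and Eomes (0.358 ± 0.206 FPKM). Among neighbours in this order the ranges of Sox4, Prox1, Dcx and Sox11 overlapped from each to the next, as did those of Neurod2, Igfbpl1 and Eomes.

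**Figure D4:**
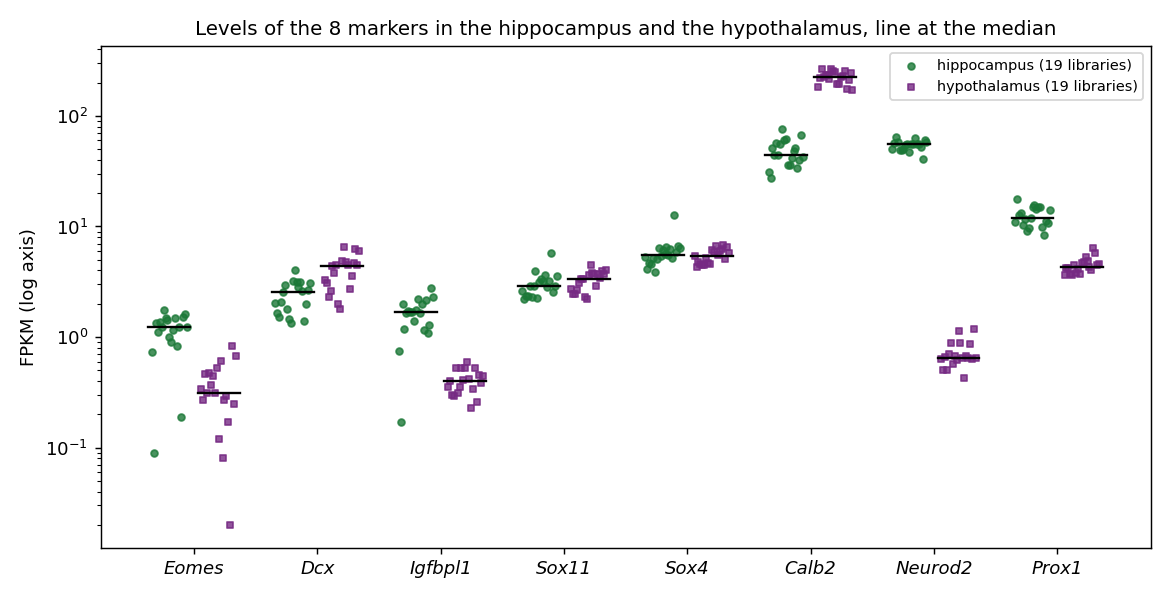
FPKM of the 8 markers on a log axis in 19 hippocampus libraries (circles, left of each pair) and 19 hypothalamus libraries (squares, right), all groups pooled, with a line at the median. Neurod2 and Prox1 are higher and Calb2 is lower in every hippocampus library, while Dcx, Sox11 and Sox4 overlap between the regions.

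Set against the hypothalamus in 18M CON mice, 4 of 8 markers were called in the hippocampus, 3 higher and 1 lower, where 47.6% of 14500 genes were called (18.5% higher and 29.1% lower). In 8W CON mice 5 of 8 were called, 4 higher and 1 lower, where 50.5% of genes were called (17.6% higher and 33% lower). These splits of all genes moved with the scaling: 2681 were higher and 4219 lower in 18M CON and 2548 higher and 4781 lower in 8W CON, against 3241 and 3258 in 18M CON and 3204 and 3403 in 8W CON after median-of-ratios scaling. Neurod2 had 50.4, 56.8, 64.5 and 58.1 FPKM in 18M CON hippocampus, against 0.63, 0.50, 0.66 and 0.50 FPKM in 18M CON hypothalamus. The regions did not overlap, at a log2 difference of 5.21 ± 0.111 (adjusted p = 6.19e-29). Being on the log2(FPKM + 1) scale, this difference understates the ratio of FPKM at such low values, as it does for Igfbpl1 and Eomes below. Prox1 had 11, 17.9, 12.6 and 13.4 FPKM in 18M CON hippocampus, against 3.64, 4.23, 4.19 and 3.70 FPKM in 18M CON hypothalamus (log2 difference 1.56 ± 0.119). Calb2 went the other way, with 31.0, 27.6, 51.7 and 44.3 FPKM in 18M CON hippocampus, against 182.4, 219.4, 267.1 and 222.9 FPKM in 18M CON hypothalamus (log2 difference -2.53 ± 0.189). The thalamic list, with Calb2 itself included, summed to 45.68 to 80.55 FPKM in these hippocampus libraries and 224.6 to 328.2 FPKM in these hypothalamus libraries. The part of thalamic neurons in this difference was not tested. Every hippocampus library was above every hypothalamus library for Neurod2 and Prox1, as for 19.8% of genes, and below for Calb2 and Dcx, as for 32.1%. In 8W CON the log2 differences were 5.02 ± 0.1 for Neurod2, 1.47 ± 0.107 for Prox1 and -2.28 ± 0.169 for Calb2, all called.

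The early markers Igfbpl1 and Eomes were higher in the hippocampus of 8W CON mice. Igfbpl1 had 1.74, 2.20, 1.66, 1.98 and 1.15 FPKM in 8W CON hippocampus, against 0.52, 0.60, 0.42, 0.23 and 0.34 FPKM in 8W CON hypothalamus (log2 difference 0.94 ± 0.154). Eomes had 1.01, 0.91, 1.16, 1.48 and 0.83 FPKM in 8W CON hippocampus, against 0.12, 0.61, 0.08, 0.27 and 0.29 FPKM in 8W CON hypothalamus (log2 difference 0.71 ± 0.175, adjusted p = 0.000889). Neither pair overlapped, as for 14.8% of genes with the hippocampus higher. In 18M CON the log2 differences were 0.52 ± 0.172 for Igfbpl1 (adjusted p = 0.0129) and 0.38 ± 0.196 for Eomes (adjusted p = 0.115). Single libraries decided both: without 18M CON hippocampus replicate 3 the difference of Igfbpl1 was 0.30 (adjusted p = 0.131), and without replicate 2 that of Eomes was 0.60 (adjusted p = 0.00953). Eomes is also made by NK and T cells, and 8 of their genes (Ncr1, Klrb1c, Nkg7, Gzma, Gzmb, Cd3e, Cd8a and Tbx21) together summed to 1.00 to 2.09 FPKM in hippocampus libraries. Eomes itself lay at 0.09 to 1.77 FPKM there, and the part of these cells in its values was not tested. Dcx was on the lower side in the hippocampus, at 1.51 to 2.07 FPKM in 18M CON, against 2.32 to 3.27 FPKM in 18M CON hypothalamus (log2 difference -0.43 ± 0.205, adjusted p = 0.0804). Its level in bulk tissue was thus not particular to the region that holds the dentate gyrus. In 8W CON the log2 difference of Dcx was -0.38 ± 0.183 (adjusted p = 0.0818), and -0.53 (adjusted p = 0.0157) without hypothalamus 8W CON replicate 5. For Sox11 and Sox4 the differences between regions were at most 0.15 in size, with intervals of -0.36 to 0.20 and -0.30 to 0.27 in 18M CON (95%).

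The age comparison in the hypothalamus called Sox11 and Sox4 lower in both schedules. In CON, 2 of the 6 markers tested there were called, where 9.95% of 14437 genes were called, 6.21% lower and 3.73% higher (897 and 539 genes, and 803 and 940 after median-of-ratios scaling). Sox11 had 2.72, 2.45, 2.44 and 2.68 FPKM in 18M CON, against 3.65, 4.49, 3.76, 3.71 and 2.89 FPKM in 8W CON. Sox4 had 5.39, 4.32, 4.74 and 4.54 FPKM in 18M CON, against 6.10, 5.87, 6.70, 5.55 and 6.00 FPKM in 8W CON. For both, and for Prox1, every older library was below every younger one, as for 6.06% of genes. The log2 changes were -0.39 ± 0.103 for Sox11 (adjusted p = 0.0312) and -0.30 ± 0.078 for Sox4 (adjusted p = 0.0304). Dcx had 3.27, 3.05, 2.32 and 2.61 FPKM in 18M CON and 4.90, 6.52, 4.80, 4.52 and 2.70 FPKM in 8W CON, overlapping through 8W CON replicate 5 alone (log2 change -0.55 ± 0.212, adjusted p = 0.0858; -0.69, adjusted p = 0.0182, without that library). Both calls were lost on leaving out any 1 of 7 libraries, 18M CON replicates 2, 3 and 4 and 8W CON replicates 1, 2, 3 and 4, with adjusted p of at most 0.08575 for Sox11 and 0.0936 for Sox4. With the length index as a covariate neither Sox11 (-0.12 ± 0.107) nor Sox4 (-0.27 ± 0.105) was called and Dcx was at 0.08 ± 0.204. The CON ages did not overlap in the index here, so that fit does not settle the age changes.

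Under CRD, 2 of 6 markers were called lower with age in the hypothalamus, where 12.3% of genes were called, 7.49% lower and 4.86% higher (1081 and 701 genes, and 1081 and 1056 after median-of-ratios scaling). Sox11 had 3.09, 3.37, 3.35, 2.28 and 2.21 FPKM in 18M CRD, against 3.70, 3.40, 3.93, 3.70 and 4.07 FPKM in 8W CRD. Sox4 had 4.48, 4.48, 5.18, 4.65 and 4.59 FPKM in 18M CRD, against 6.26, 6.76, 5.07, 6.58 and 5.70 FPKM in 8W CRD. Sox11 did not overlap, as for 4.05% of genes, and Sox4 overlapped through 1 library of each age. The log2 changes were -0.31 ± 0.097 for Sox11 (adjusted p = 0.0438) and -0.31 ± 0.074 for Sox4 (adjusted p = 0.0174). Dcx had 4.40, 3.8, 4.49, 2.01 and 1.80 FPKM in 18M CRD and 3.53, 4.70, 6.28, 4.51 and 5.97 FPKM in 8W CRD (log2 change -0.52 ± 0.2, adjusted p = 0.0805), and Prox1 had a log2 change of -0.28 ± 0.092 (adjusted p = 0.0501). The fit on CRD libraries alone called neither Sox gene (adjusted p = 0.0840 for Sox11 and 0.0571 for Sox4), and with the length index as a covariate neither was called (-0.03 ± 0.107 for Sox11 and -0.29 ± 0.105 for Sox4). Under CRD too the ages did not overlap in the index, so the covariate fit does not settle the age changes. The call of Sox4 was lost without 8W CRD replicate 2 (adjusted p = 0.0547). That of Sox11 was lost on leaving out any 1 of 11 libraries, namely 18M CRD replicates 4 and 5, 8W CRD replicates 1, 2, 3 and 5, 18M CON replicates 1, 2 and 4 and 8W CON replicates 3 and 4, with an adjusted p of up to 0.132. Dcx was called without 18M CRD replicate 3 (-0.62, adjusted p = 0.0402), and Prox1 without 18M CRD replicate 2, 8W CRD replicate 1 or 4 or 8W CON replicate 5 (adjusted p of 0.0265 to 0.0481).

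For the light schedule no marker was called in the hypothalamus. In CRD against CON hypothalamus 0 of 6 were called at 18 months, where 0.0277% of genes were called, and 0 of 6 at 8 weeks, where 0 of 14437 genes (0%) were called and 203 had an unadjusted p under 0.05. The markers' log2 changes ran from -0.02 to 0.12 at 18 months and from -0.06 to 0.09 at 8 weeks. For the difference of these effects between the ages 0 of 6 were called, against 0.0485% of genes, with values from -0.05 to 0.19.

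Age effects in the hippocampus were not shown to differ from those in the hypothalamus. In CON, 0 of 8 markers and 0 of 14500 genes (0%) were called for the difference of the age effects, with 558 genes and 0 members at an unadjusted p under 0.05, and the members' differences lay between -0.43 and 0.19 on the log2 scale (largest SE 0.275). In CRD they lay between -0.14 and 0.37 (largest SE 0.259), with 0 members and 0.0069% of genes called. Dcx, Sox11 and Sox4 had negative log2 changes with age in both regions under both schedules. The exception was Dcx in the hypothalamus with the length index as a covariate, at 0.08 (CON) and 0.15 (CRD), where the ages did not overlap in the index.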

How the data were processed

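Libraries were made from Trizol-extracted RNA by oligo(dT) selection of mRNA and random-primed cDNA synthesis, per the labels' protocols. The authors deposited 1 table of FPKM values (2 decimals, 20673 genes, 78 libraries). The submitters' processing notes name GRCm38 as build and list RSEM, HISAT2, DESeq2 and Bowtie2; versions, settings, use of strand and the treatment of reads shared between genes are not given in the sources used here. Collection hour, sex and batches are not given in the sources used here either, so batch could not be examined.

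The 8 members and all gene lists were chosen with earlier results of these data known. Values were taken as log2(FPKM + 1), on which fold changes of low genes are understated. Genes averaging 0.5 FPKM or more in a fit were tested. limma 3.58.1 (R 4.3.3, intensity trend) was fitted over the 4 groups of each region, and over all 8 groups for the comparison of regions. p-values were adjusted by the Benjamini-Hochberg method over all genes tested, with 0.05 as threshold; errors are SE of the fit, and SD for FPKM. Intervals are 95%. The procedure was tested on simulated data. No 2 libraries were identical (highest correlation 0.9961).

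Alternatives were a pseudocount of 0.1, other filters, median-of-ratios scaling, no trend, a robust prior, fits on the compared groups alone, leaving out each library (also for list genes called in the hippocampus, added after the data had been seen), leaving out 4 libraries under 1000 FPKM of Ttr, and the replicate number as a block. The transcript length index as a covariate was added after the data had been seen. All 8 markers were named throughout; list genes were named where called in the hippocampus (up to 4 a list) or as defining markers, and genes like Dcx were the 8 with the highest correlation. A few list genes (Neurod1 and St8sia4) were named after their values were seen. Promoters were matched by gene to RefSeq windows (6 of 8 members).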

Additional observations from a re-analysis of the deposited data

Results flagged for a closer look

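In 4 of 64 sets of a marker in a group, 1 library lay apart from the rest by Dixon's criterion, which flags about 1 in 20 sets by chance. In the hippocampus Sox4 was at 12.76 FPKM in 8W CRD replicate 2, against 5.17 to 6.69 FPKM in the other 8W CRD libraries. Eomes was at 0.19 FPKM in the same library, against 1.23 to 1.62 FPKM in the others. Igfbpl1 was at 1.41 FPKM in 18M CRD replicate 5, against 1.64 to 1.73 FPKM in the others. In the hypothalamus Sox4 was at 5.18 FPKM in 18M CRD replicate 3, against 4.48 to 4.65 FPKM in the others. The low Eomes value of 18M CON replicate 2 (0.09 FPKM) did not pass the criterion. The causes were not tested.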

How the results depend on the processing

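In the age comparison in CON hippocampus, with 0 markers called, 3 were called in the fit on CON libraries alone, 2 without the libraries low in Ttr, 2 with the length index as a covariate and 0 to 1 when leaving out 1 library. All genes called numbered 67, against 1628, 999 and 438 in those fits and 25 to 289 when leaving out 1 library. In CRD hippocampus the covariate gave 1 marker, and all genes called numbered 110, against 221 with the covariate and 33 in the fit on CRD libraries alone. In the hypothalamus the age comparison called 2 markers in CON and 2 in CRD. In CON it called 0 with the covariate and 0 to 3 when leaving out 1 library. In CRD it called 1 with no filter on low values, 0 in the fit on CRD libraries alone, 0 with the covariate and 0 to 3 when leaving out 1 library. All genes called there numbered 1436 in CON and 1782 in CRD, against 47 and 53 with the covariate, 925 and 1188 with no filter and 371 in CRD alone. The causes were not tested. Of 27 same-numbered pairs of libraries from different groups, 9 deviated together (correlation above 0.1) in each region, and of 19 pairs of a hippocampus and a hypothalamus library 14 did (median 0.181, -0.181 to 0.568). Of the 19 hippocampus libraries 12 correlated best with the hypothalamus library of their own number, a hint from the data that the regions may share animals; since 5 pairs were at 0.1 or lower and the labels do not say, the numbers were not taken as pairs, and p-values between regions treat the libraries as independent. With same-numbered libraries of both regions as a block, 6 of 8 markers were called between regions in 18M CON and 6 in 8W CON, against 4 and 5, with Dcx added in both (adjusted p = 0.0203 and 0.0211) and Eomes in 18M CON (0.0467), and 0 of 8 for the differences of age effects in CON and in CRD. Within regions a replicate block raised the CON hypothalamus count to 4 (3164 genes of all) and called 222 genes in CON hippocampus.

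Signs were reversed in 15 of 624 fits of single markers with other settings. Not all of these were small changes: Dcx with age in the hypothalamus was at -0.55 (CON) and -0.52 (CRD) in the main fit. Eomes in 8W CRD against CON was -0.11 with a pseudocount of 0.1. Without the libraries low in Ttr, Neurod2 was 0.024 (age in CRD), Sox11 and Sox4 were each -0.045 (8W CRD against CON) and Sox4 was 0.056 (difference of schedule effects). With the covariate Sox4 was -0.046 and -0.156 (CRD against CON at 18M and 8W) and 0.11 (difference of schedule effects), Sox11 was -0.18 (8W), and in the hypothalamus age comparisons Dcx was 0.081 in CON and 0.146 in CRD and Calb2 was -0.33 in CON and -0.16 in CRD. With median-of-ratios scaling the regions differed by 0.05 and 0.076 in Sox4 (18M CON and 8W CON).

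Leaving out 1 library reversed 29 of 1596. In the hippocampus age comparisons Neurod2 ran from -0.008 to 0.109 (CON) and -0.123 to 0.015 (CRD), and Prox1 from -0.115 to 0.055 (CRD). In CRD against CON, Dcx ran from -0.028 to 0.162 (18M), and at 8W Eomes from -0.071 to 0.214, Calb2 from -0.082 to 0.18, Igfbpl1 from -0.033 to 0.18, Sox11 from -0.063 to 0.169 and Neurod2 from -0.116 to 0.033. Sox4 ran from -0.182 to 0.107 (difference of schedule effects), from -0.065 to 0.035 and from -0.035 to 0.023 (regions, 18M and 8W CON). Calb2 ran from -0.068 to 0.114 (hypothalamus, age in CON). FPKM without counts sets no interval for single libraries, so low values of Eomes and Igfbpl1 carry an unknown counting error.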

Other observations

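Outside the brain 4 of the 8 markers were nearly silent. Dcx was at 0.15 FPKM or lower, Sox11 at 0.17 FPKM or lower, Igfbpl1 at 0.06 FPKM or lower and Neurod2 at 0.14 FPKM or lower in all 40 libraries of cecum, colon and peripheral blood mononuclear cells (PBMC). Sox4 was as high in the gut as in the brain, at 4.92 ± 1.46 FPKM in cecum and 6.40 ± 2.32 FPKM in colon (SD, n = 18 each), and reached 2.86 to 7.18 FPKM in the 4 PBMC libraries. Calb2, which enteric neurons also make, was at 6.14 ± 2.93 FPKM in cecum and 11.5 ± 4.33 FPKM in colon. Eomes, a factor of cytotoxic lymphocytes, was highest of all tissues in PBMC, at 2.75 to 11.1 FPKM. In cecum it was at 0.46 to 2.85 FPKM, a range that includes most of the hippocampus values, and in colon at 0.08 to 0.52 FPKM. Prox1 was low outside the brain, at 0.50 ± 0.206 FPKM in cecum and 1.38 ± 0.422 FPKM in colon (SD, n = 18 each) and at 0.02 to 0.21 FPKM in PBMC, against 8.42 to 17.9 FPKM in the 19 hippocampus libraries. These values pool ages and schedules and were not tested between tissues.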
